A study of Mus musculus with 8 samples.

Results

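Skeletal muscle contractile and metabolic genes were followed across 8 mammary tumour arrays, as a measure of the muscle RNA that each tumour sample may carry. The group holds 36 genes, taken by name from the annotation of the array: 35 of the 36 had at least 1 probe under their own name, with 61 probes in all among the 41174 probes of the array, and 30 had a probe that entered the fit of 21540 genes. For Mybpc1, a myosin-binding protein of slow fibres, no probe carried the symbol, and the probe that its transcript accession points to is given separately. The study compared tumours of mice with Stat3 floxed on both alleles (Stat3flx/flx/MMTV-NIC, 5 single tumours) with tumours of Stat3 wild-type mice of the same transgenic line (Stat3wt/wt/MMTV-NIC, 3 pools of 5 tumours each). All mice were virgin females, and all tumours were taken 6 weeks post palpation and flash frozen. MMTV-NIC is a transgene that expresses an activated Neu (ErbB2) oncogene and Cre recombinase from 1 transcript under the mouse mammary tumour virus promoter, which is active mainly in mammary epithelium. Both groups therefore carried the oncogene and Cre, and Stat3 is deleted only in cells that express the transgene: muscle, fat and other host cells in a tumour sample keep it. Tumour RNA was labelled with Cy5 and hybridised against a commercial mix of mouse cell line RNA (Cy3), so each value is a log2 ratio of tumour over that reference. A negative ratio says only that the reference holds more of a transcript, and only differences between arrays are read here. Because a pool averages 5 tumours, a single sample with much muscle weighs less within a pool than as a single floxed tumour. How far this bears on the values here was not tested.

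Muscle fibres shorten when myosin heavy chains (Myh genes) with their light chains (Myl1, Mylpf) pull on thin filaments of skeletal actin (Acta1). Troponin (a C, an I and a T subunit) switches this pull on when calcium is released from the sarcoplasmic reticulum through the ryanodine receptor (Ryr1), and the pump Atp2a1 takes the calcium back. Fast and slow fibres use different genes for most of these parts: Myh1 encodes the IIX, Myh2 the IIA and Myh4 the IIB heavy chain of fast fibres, and Myh7 the slow heavy chain that the heart also uses. Fuel comes from creatine kinase (Ckm), glycogen phosphorylase (Pygm) and glycolytic enzymes (Pgam2, Eno3), and slow, oxidative fibres and heart store oxygen on myoglobin (Mb). The mouse mammary fat pad lies under the skin next to thin sheets of skeletal muscle, so that a dissected tumour can include some of it.

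The arrays read each gene with 60-base probes, and the ones on which the results turn most are shown here because probes of the same gene gave different patterns. The first 6 are probes that were high in floxed tumour 5. The last 4 are a Myh1 probe and probes of cardiac actin, of slow troponin C and of the fast calcium pump, shown for comparison. Of these 4, the Atp2a1 probe was also high in floxed tumour 5, at 2.78 log2 units above its median over the arrays.
Myh1 (A_51_P192042): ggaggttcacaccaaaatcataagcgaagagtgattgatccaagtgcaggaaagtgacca
Myh2 (A_51_P395652): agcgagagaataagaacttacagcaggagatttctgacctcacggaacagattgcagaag
Myh4 (A_52_P602147): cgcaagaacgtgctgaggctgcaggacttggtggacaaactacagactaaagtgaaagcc
Tnnt3 (A_52_P622418): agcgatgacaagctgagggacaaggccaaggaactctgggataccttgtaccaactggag
Acta1 (A_51_P246854): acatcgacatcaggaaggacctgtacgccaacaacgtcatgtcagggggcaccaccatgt
Ckm (A_51_P380807): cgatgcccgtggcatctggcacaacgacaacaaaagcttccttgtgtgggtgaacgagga
Myh1 (A_51_P364788): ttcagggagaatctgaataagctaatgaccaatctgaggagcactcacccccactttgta
Actc1 (A_51_P149469): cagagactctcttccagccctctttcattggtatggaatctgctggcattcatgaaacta
Tnnc1 (A_51_P461894): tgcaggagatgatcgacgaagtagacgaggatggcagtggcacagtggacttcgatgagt
Atp2a1 (A_52_P686130): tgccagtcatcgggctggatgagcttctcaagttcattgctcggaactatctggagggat
All 10 are printed in lower case because no part of them is singled out. In the mm7 build of the array's annotation the Myh1, Myh2 and Myh4 probes lie in 1 cluster on the plus strand of chromosome 11: Myh2 at chr11:67274375-67274539, Myh1 at chr11:67306002-67306061 (A_51_P192042) and chr11:67290894-67291996 (A_51_P364788), and Myh4 at chr11:67340868-67340927. A span longer than 60 bases means that the probe crosses an intron and can pair in full only with spliced RNA, which is so for the printed probes of Myh2, Tnnt3, Ckm, Actc1, Tnnc1 and Atp2a1 and for A_51_P364788. The longest run that any pair of the Myh1, Myh2 and Myh4 probes shown shares is 7 bases, and the Acta1 and Actc1 probes share a run of 5 bases. These runs compare the probes only with each other. Whether a probe also pairs with RNA of a related gene was not tested. An annotation of this build, which would place the probes in exons, was not used here. One further Myh1 probe, A_52_P257638 at chr11:67306066-67306125, runs on the minus strand, opposite to the other probes of that gene, and so reads RNA of the other strand.

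The 8 arrays were of like quality: the median tumour-channel signal was 642 to 891 units over a background of 47 to 58, with 71.7% to 77.3% of the probes detected above it. Over all genes, the arrays correlated at 0.864 to 0.964. Stat3 itself was lower on each floxed array, at log2 ratios of -1.48 to -1.12 in floxed tumours and 0.12 to 1.27 in the pools (difference -2.05, SE 0.24, limma adjusted p = 0.109); the groups did not overlap, and whether the probe lies in the deleted exons was not examined. These are values of the brightest Stat3 probe; the mean of its kept probes differed by -1.32 (limma adjusted p = 0.702). Among the alternatives tried, Stat3 passed the threshold of 0.05 only without wild-type pool 1 (adjusted p = 0.0280). The 20 epithelial markers, Krt8 and Krt18 among them, were all measured, with a summed tumour-channel level of 707635 to 915205 over the arrays and the highest value in pool 3.

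Floxed tumour 5 stood apart in the muscle genes. An earlier analysis of these data had already found it to be the highest array, so the counts given here are a description. Of the 30 members in the fit, 23 had their highest ratio of the 8 arrays in floxed tumour 5, against 9.15% of all genes. Of the 30, 15 lay more than 1 log2 unit above their own median over the 8 arrays there, against 0.817% of all genes, and over all 61 member probes, with no filter on dim probes, 31 did, from 22 of the 35 genes. Floxed tumour 2 came next, with 4 of the 30 members and 7 of the 61 probes above that mark (3.05% of all genes), and it was the second highest array for 13 members. On wild-type pool 3 (4.1% of all genes) and on floxed tumour 1 (3.27%) a single member each passed it, Mybpc2 and Myh1. On floxed tumours 3 and 4 and pools 1 and 2 none did, against 0.854%, 0.957%, 0.702% and 0.251% of all genes. The median over members of the deviation from each gene's own median was 1.01 in floxed tumour 5, 0.14 in floxed tumour 2, 0.02, -0.02 and -0.23 in floxed tumours 1, 3 and 4, and -0.09, -0.07 and 0.01 in pools 1, 2 and 3. In bulk tissue such as this, more muscle cells and more RNA per muscle cell cannot be told apart.

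**Figure D1:**
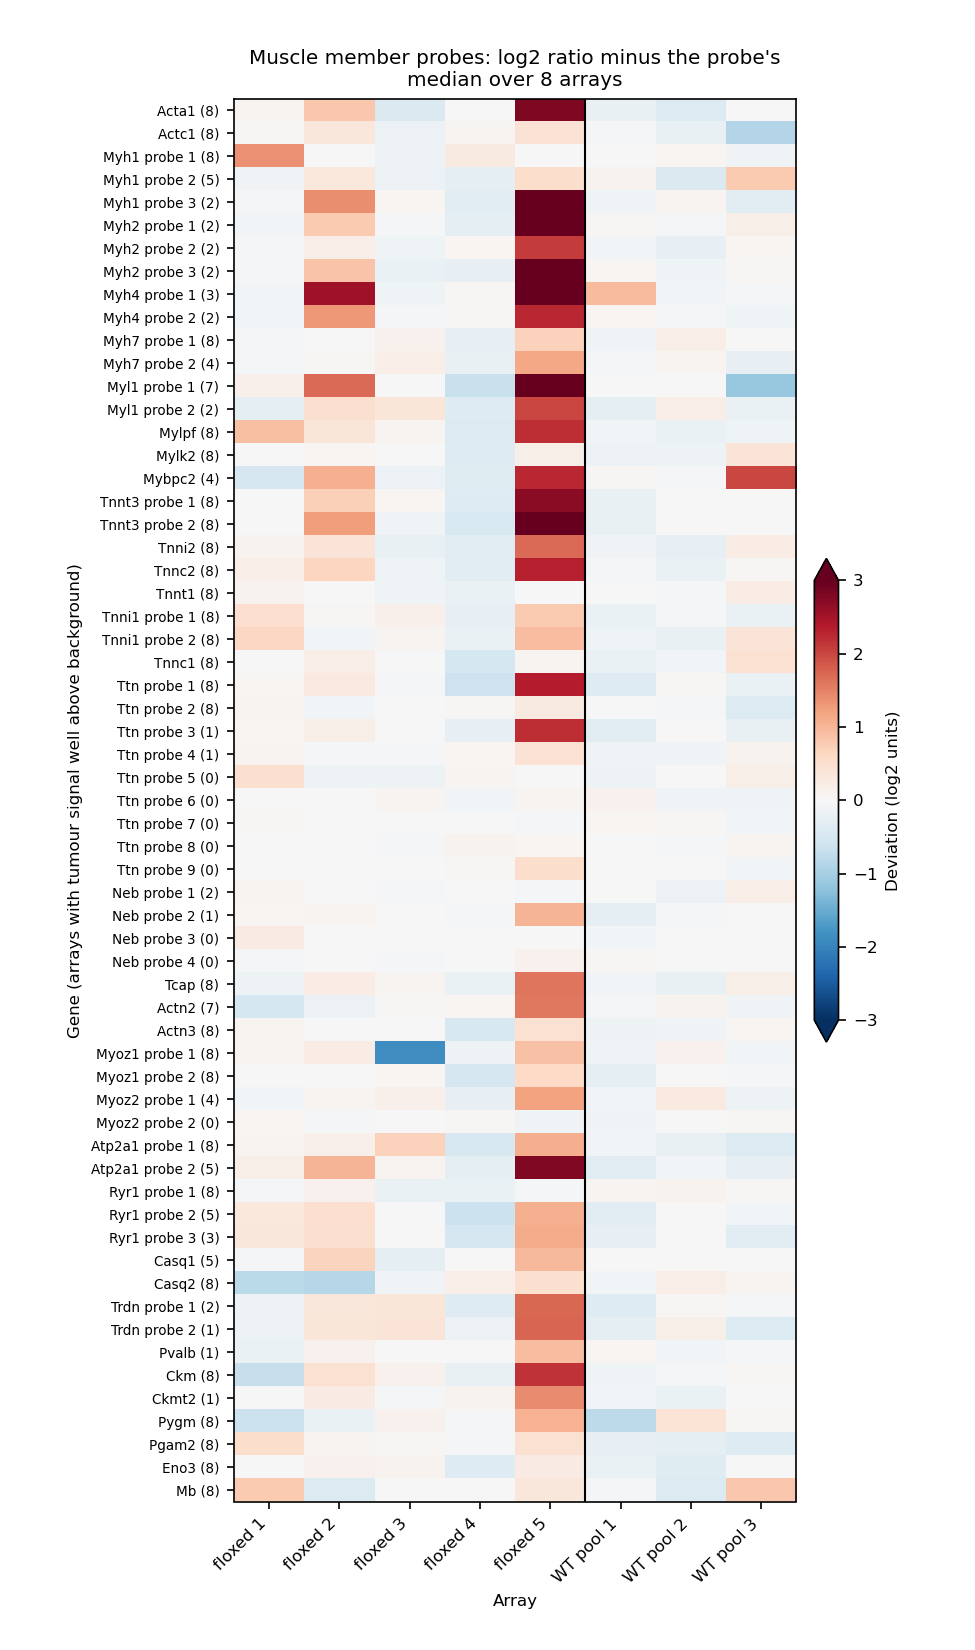
Heat map of the 61 member probes (rows, grouped by role; number of arrays with tumour signal well above background in brackets) on 8 arrays (columns), with colour for the log2 ratio minus the probe's median over the arrays, cut at 3 either way. The floxed 5 column is red for 31 probes by more than 1 log2 unit, the floxed 2 column for 7, and the pool columns for 1.

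Skeletal actin, the main thin-filament protein of muscle, had Acta1 log2 ratios of -2.85, -2.12, -3.36, -2.91 and -0.13 in floxed tumours 1 to 5 and of -3.14, -3.34 and -2.94 in pools 1 to 3. Floxed tumour 5 was the highest and floxed tumour 2 the next, and the remaining 6 arrays lay between -3.36 and -2.85. In normalised tumour-channel intensity the Acta1 probe read 14891 in floxed tumour 5 and 3901 in floxed tumour 2. These were 8.08-fold and 2.12-fold the geometric mean of the pools, the kind of mean used for all folds here. Cardiac actin, Actc1, which skeletal muscle makes mainly in development, had the same arrays on top with a smaller deviation: its ratios were -1.78, -1.47, -1.97, -1.73 and -1.38 in the floxed tumours and -1.83, -2.04 and -2.68 in the pools. The Actc1 intensity was 1.80-fold the mean of the pools in floxed tumour 5 and 1.73-fold in floxed tumour 2. Its group difference was 0.52 (SE 0.22, limma adjusted p = 0.942 and exact permutation p = 0.0536), with floxed tumour 3 inside the range of the pools.

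The heavy chains of fast fibres were high in floxed tumours 5 and 2, though not by every probe. The Myh1 probe A_51_P192042, for the IIX chain, had ratios of -0.82, 0.63, -0.71, -1.12 and 3.78 in floxed tumours 1 to 5 and -0.89, -0.68 and -1.08 in the pools. It was well above background on floxed tumours 2 and 5 alone, and its intensity of 4365 in floxed tumour 5 was at least 31.2-fold that of the pools, where the signal could only be bounded. In floxed tumour 2 the same probe read 384, at least 2.74-fold the pools. All 3 Myh2 probes, for the IIA chain, were likewise well above background on those 2 arrays alone. Their intensities in floxed tumour 5 were 577, 1396 and 2109, at least 4.44-fold, 9.82-fold and 15.1-fold the pools, and in floxed tumour 2 they were 167, 219 and 244. The IIB chain, Myh4, differed less between the 2 tumours: A_51_P338072 had ratios of 2.51 in floxed tumour 2 and 3.18 in floxed tumour 5, against -0.16 to 0.00 in the other floxed tumours and 0.91, -0.13 and -0.07 in the pools. Its intensity was 841 in floxed tumour 2 and 1416 in floxed tumour 5, 4.93-fold and 8.29-fold the mean of the pools, of which 1 of 3 was well above background, and the printed Myh4 probe read 346 and 603. Floxed tumour 2 thus held signal for Myh4 at a level nearer to floxed tumour 5 than it did for Myh1 or Myh2; with 1 array each, this order has no replicate check. The Myh4 probe A_51_P338072 was also above background on pool 1, at 255, and the printed one was not.

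**Figure D2:**
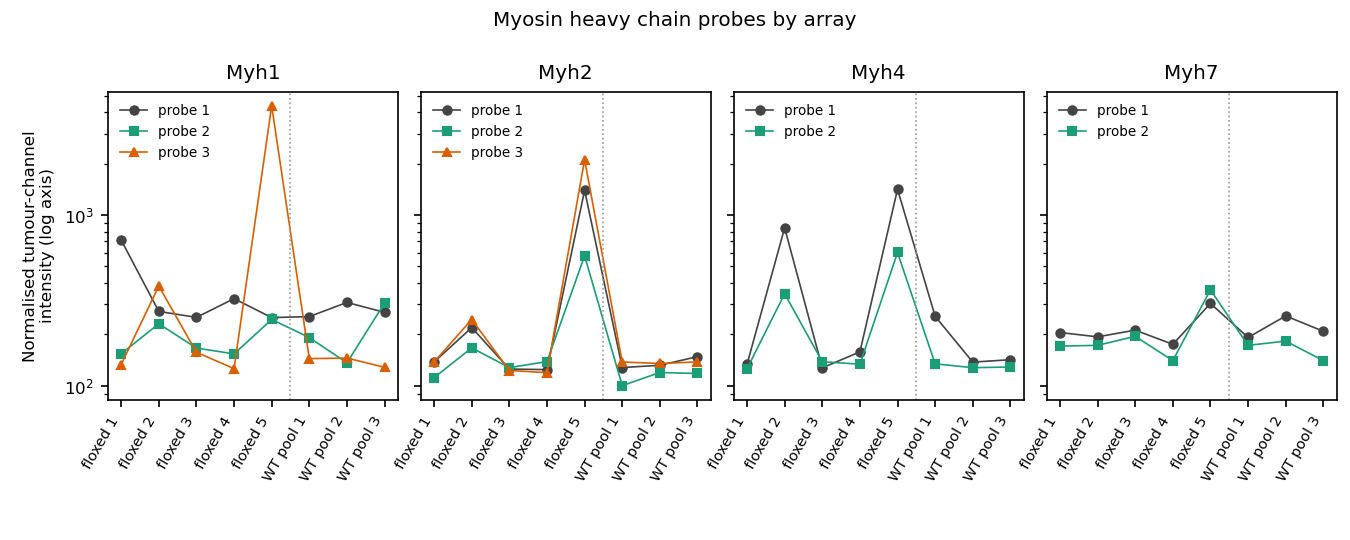
Normalised tumour-channel intensity (log axis) of each probe of the fast heavy chains Myh1, Myh2 and Myh4 and of the slow chain Myh7 on the 8 arrays, with 1 line per probe. Myh2 and Myh4 peak in floxed 5 with a smaller peak in floxed 2, Myh1 does so in A_51_P192042, its probe 3 in the plot, alone (4365 in floxed 5), and Myh7 stays between 140 and 365.

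The start regions of these 3 neighbouring genes are shown because Myh1, Myh2 and Myh4 were high on the same arrays. They are the 250 bases before each RefSeq gene start in build GRCm38.p6, all on the plus strand, and the capitals mark the longest run common to all 3, of 20 bases.
Myh2 (chr11:67170777-67171026): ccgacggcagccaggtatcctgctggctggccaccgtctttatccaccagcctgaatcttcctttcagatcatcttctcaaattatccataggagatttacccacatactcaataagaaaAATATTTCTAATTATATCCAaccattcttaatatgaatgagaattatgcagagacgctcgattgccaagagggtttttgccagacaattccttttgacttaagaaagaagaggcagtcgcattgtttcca
Myh1 (chr11:67199852-67200101): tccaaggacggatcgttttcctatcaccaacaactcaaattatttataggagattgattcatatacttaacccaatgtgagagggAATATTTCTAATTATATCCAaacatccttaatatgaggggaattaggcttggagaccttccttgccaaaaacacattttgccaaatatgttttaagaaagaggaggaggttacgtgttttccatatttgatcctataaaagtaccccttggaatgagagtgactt
Myh4 (chr11:67237562-67237811): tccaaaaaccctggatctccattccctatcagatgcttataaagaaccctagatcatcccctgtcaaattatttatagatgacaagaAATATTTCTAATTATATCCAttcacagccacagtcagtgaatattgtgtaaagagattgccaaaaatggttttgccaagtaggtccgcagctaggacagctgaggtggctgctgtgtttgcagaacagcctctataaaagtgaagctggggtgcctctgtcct
The run began 130 bases before the start of Myh2, 165 before that of Myh1 and 163 before that of Myh4, and 3 of 32851 RefSeq start regions of 300 bases held it on either strand. Of the 36 members, 28 had such a region, with 33 regions in all. Some regions of Mb, Myh7 and Tnni1 overlap each other, so the 33 are not all separate. The E-box, CANNTG, to which the MyoD family of muscle transcription factors binds, was in 29 of the 33 (87.9%) and in 72.3% of all regions. The regions of Myh1, Myh2 and Ryr1 and a region of Pvalb held none. The CArG box, bound by serum response factor, was in 3 of the 33 (9.09%), those of Acta1, Actc1 and Myh4, and in 1.63% of all regions. The MEF2 site was in 2 (6.06%), those of Ttn and Myoz2, and in 0.557% of all. TATAAA was in 7 (21.2%) and in 13.6% of all. The search took both strands and allowed sites to overlap, and a match is a run of letters and not a site shown to be bound.

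Fast myosin light chain 1/3, Myl1, had the largest difference between the groups and the widest range of any member. Its ratios were -3.94, -2.37, -4.07, -4.74 and 0.96 in floxed tumours 1 to 5 and -4.09, -4.09 and -5.22 in the pools. Floxed tumour 5 lay far above all other arrays, at 43.0-fold the geometric mean intensity of the pools, and floxed tumour 2 was 4.13-fold. For this probe 2 of the 3 pools were well above background, and pool 3 was not. The difference of 1.63 (SE 1.15) gave a limma adjusted p of 0.942, and it was 0.69 without floxed tumour 5. The fast regulatory light chain, Mylpf, read -0.79, -1.33, -1.62, -2.11 and 0.52 in the floxed tumours and -1.78, -1.91 and -1.82 in the pools. Here floxed tumour 1 ranked between floxed tumours 5 and 2, and floxed tumour 4 lay below the pools. Mylpf differed by 0.77 between the groups (SE 0.50, adjusted p = 0.942) and by 0.37 without floxed tumour 5. Mybpc2, the fast form of myosin-binding protein C, was high in floxed tumour 5 (1.99) and in wild-type pool 3 (1.72), with 0.78 in floxed tumour 2 and -0.80 to -0.24 elsewhere, a group difference of -0.21 (SE 0.71), and it was the only member in the fit more than 1 log2 unit above its median in a pool. The probe assigned to Mybpc1 by accession was well above background on floxed tumour 5 alone, at a ratio of 1.75 against -0.33 to 0.12 on the other 7 arrays. Mylk2, the skeletal myosin light chain kinase, ranged from -0.77 to 0.01 with its highest value in pool 3.

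The 3 fast troponin subunits shared a pattern. Tnnt3, fast troponin T, had ratios of -2.73, -1.47, -2.85, -3.20 and 0.43 in floxed tumours 1 to 5 and -2.95, -2.73 and -2.74 in the pools, and its second probe gave 0.42 in floxed tumour 5 and -1.58 in floxed tumour 2. The printed Tnnt3 probe was 8.80-fold the pools in floxed tumour 5 and 2.38-fold in floxed tumour 2, with the other 6 arrays between 195 and 287 units of intensity. Tnnc2, fast troponin C, read -0.81, -0.37, -1.15, -1.35 and 1.33 in the floxed tumours and -1.05, -1.21 and -0.96 in the pools, and Tnni2, fast troponin I, reached 0.22 in floxed tumour 5 against -1.78 to -1.09 elsewhere. These amounted to 5.20-fold (Tnnc2) and 3.45-fold (Tnni2) the pools. The slow subunits did not show this. Tnnt1, slow troponin T, read -2.52, -2.62, -2.73, -2.82 and -2.61 in the floxed tumours and -2.63, -2.67 and -2.40 in the pools, with floxed tumour 5 inside the range of the other arrays. Tnnc1, the troponin C of slow fibres and heart, read -1.79, -1.60, -1.82, -2.33 and -1.73 against -2, -1.89 and -1.35. Tnni1, slow troponin I, lay in between, at -0.69 in floxed tumour 5 and -1.01 in floxed tumour 1 against -1.85 to -1.23 elsewhere, and its other probe had the same arrays as the top pair. The slow heavy chain Myh7 was 0.12 in floxed tumour 5 and -0.82 to -0.37 elsewhere, 1.40-fold the pools, by its brightest probe. The other Myh7 probe, A_52_P88033, which was above background on no pool, read 0.28 in floxed tumour 5 and -1.14 to -0.69 elsewhere, at least 2.22-fold the pools. Split by fibre type, with each gene by its brightest probe, the median deviation in floxed tumour 5 was 1.96 over the 14 measured of 16 fast-fibre members and 0.49 over the 7 measured of 8 slow-fibre and cardiac members; in floxed tumour 2 it was 0.51 and 0.01. More than 1 log2 unit above the median in floxed tumour 5 lay 9 of those 14 and 1 of those 7. Both the 14 and the 9 include skeletal actin, Acta1 (deviation 2.80 in floxed tumour 5), which is not particular to fast fibres.

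Among the proteins that hold the sarcomere together, titin (Ttn), telethonin (Tcap), alpha-actinin 2 (Actn2) and Myoz2 were highest in floxed tumour 5. Ttn read -1.08, -0.84, -1.18, -1.77 and 1.21 in floxed tumours 1 to 5 and -1.53, -1.11 and -1.36 in the pools, 5.25-fold the pools in floxed tumour 5. Tcap, which caps titin at the Z-disc, reached 1.79 there against -0.04 to 0.40 on the other 7 arrays, and Actn2 reached 1.16 against -0.95 to -0.32. Floxed tumour 2 was among the lower arrays for Actn2 (-0.61) and was second for Tcap (0.40). Actn3, the alpha-actinin of fast fibres, was at -2.49 in floxed tumour 5 and -3.42 to -2.86 elsewhere, 1.48-fold the pools, and Myoz1, a fast-fibre Z-disc protein, at -0.86 and -1.96 to -1.39, with its other probe apart in floxed tumour 3 (-3.40). Nebulin (Neb), the ruler of the thin filament, was near background: of its 4 probes, 2 were above background on no array, and A_51_P495331 was above it on floxed tumour 5 alone (0.93 against -0.39 to -0.01). The remaining probe was brightest in pool 3.

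Calcium-handling genes had a smaller deviation in floxed tumour 5, with a median of 0.73 over the 4 measured of 6. Atp2a1, the calcium pump of fast fibres, had ratios of 0.26, 0.33, 0.86, -0.29 and 1.26 in floxed tumours 1 to 5 and 0.09, -0.04 and -0.24 in the pools by its brighter probe, a difference of 0.54 (SE 0.32, limma adjusted p = 0.942). The printed Atp2a1 probe put more distance between the arrays, with 1.82 in floxed tumour 5 and 0.06 in floxed tumour 2 against -1.28 to -0.79 elsewhere, or 8.00-fold and 2.30-fold the mean of the pools, of which 1 of 3 was well above background. The probes disagreed on floxed tumour 3, which the brighter one put second (0.86) and the printed one among the low arrays (-0.88). Casq1, the calcium store protein calsequestrin of fast fibres, read -0.24, 0.48, -0.45, -0.18 and 0.80 against -0.20, -0.19 and -0.17, with floxed tumours 2 and 5 above all others. Casq2, the cardiac and slow form, had the most negative group difference of the members in the fit (-0.28, SE 0.32, adjusted p = 0.950), with -0.57, -0.63, 0.14, 0.42 and 0.72 in the floxed tumours and 0.14, 0.43 and 0.33 in the pools: floxed tumours 1 and 2 were lowest and floxed tumour 5 highest. Both probes of triadin (Trdn), which anchors the release complex, were highest in floxed tumour 5, at least 2.83-fold and 3.33-fold the pools. Parvalbumin (Pvalb), a calcium buffer abundant in the IIB fibres of mice, was above background on floxed tumour 5 alone, where it read 0.83 against -0.28 to 0.04 and at least 1.67-fold the pools.

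**Figure D3:**
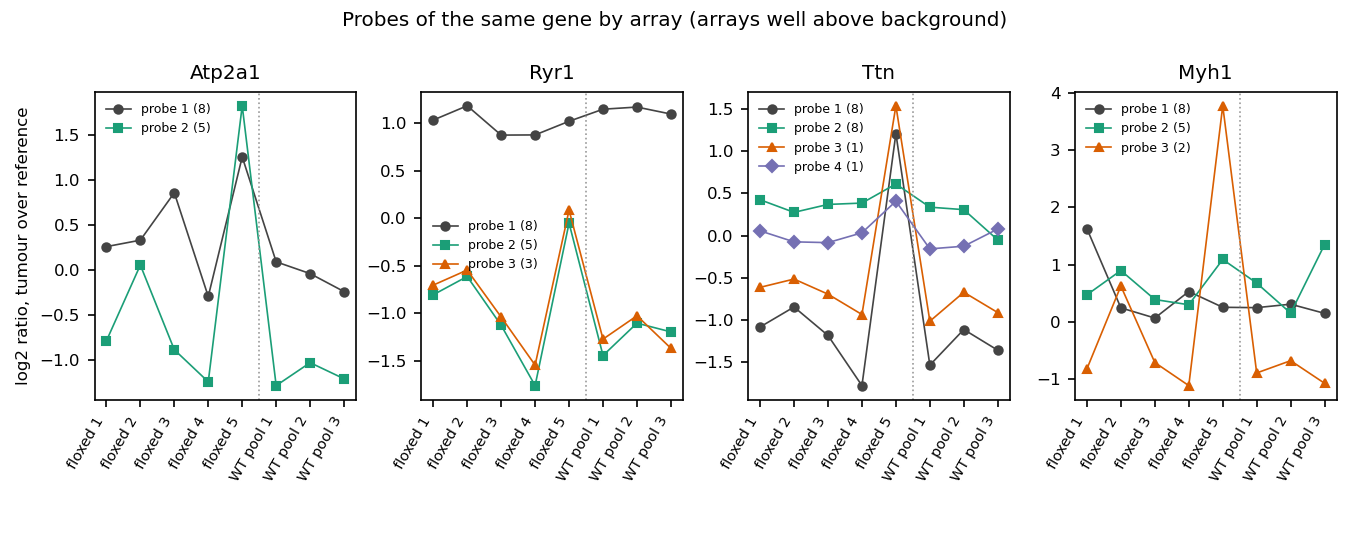
Log2 ratios (tumour over reference) of each probe of Atp2a1, Ryr1, Ttn and Myh1 on the 8 arrays, 1 line per probe, with the number of arrays on which it was well above background in brackets; probes above background on no array are left out. Both Atp2a1 probes peak in floxed 5 (1.26 and 1.82), and in Ryr1 and Myh1 the brightest probe does not (1.02 and 0.25) while another does (0.09 and 3.78).

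Probes of the same gene did not always share a pattern. Of 14 members with several probes, 6 had some but not all of their probes more than 1 log2 unit up in floxed tumour 5. This count includes probes above background on no array, and Myoz2 enters it only through such a probe. The ryanodine receptor gene Ryr1 was flat by its brightest probe, A_51_P256401 (0.88 to 1.19 on all 8 arrays, group difference -0.14, SE 0.13), and was at -0.05 and 0.09 in floxed tumour 5 against -1.76 to -0.55 elsewhere by the other 2 probes. The brightest Myh1 probe, A_51_P364788, read 1.63 in floxed tumour 1 and 0.07 to 0.53 on the other arrays, floxed tumour 5 among them at 0.25, unlike A_51_P192042. The minus-strand Myh1 probe was highest in pool 3 (1.35) and next in floxed tumour 5 (1.09). Of the 9 titin probes, A_51_P148509 and A_51_P401792 were highest in floxed tumour 5 by a wide margin (1.21 and 1.53), A_51_P219312 read -0.05 to 0.61 over all arrays, A_52_P524700 reached 0.41 there, and the other 5 were above background on no array. Since the brightest kept probe stands for a gene in the fit, Ryr1 and Myh1 enter it by the probes that do not follow; what those probes pair with was not tested. A filter of 1 array in place of 3 let 35 members into the fit, with a median difference of 0.27. Taking under that filter the probe of highest signal in floxed tumour 5, a choice that favours high values in that tumour, gave 0.34.

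The energy metabolism members also differed among themselves, with a median deviation of 0.45 in floxed tumour 5 over the 5 measured of 6. Ckm, the creatine kinase of muscle, had ratios of -0.04, 1.11, 0.79, 0.43 and 2.82 in floxed tumours 1 to 5 and 0.52, 0.62 and 0.69 in the pools, so that floxed tumour 5 was highest, at 4.84-fold the pools, and floxed tumour 1 lowest. Its mitochondrial partner Ckmt2 was above background on floxed tumour 5 alone (1.53 against -0.09 to 0.36). Pygm, which releases glucose from glycogen in muscle, read 0.61 in floxed tumour 5 against -1.21 to -0.02 elsewhere. The muscle forms of phosphoglycerate mutase and enolase differed far less between arrays. Pgam2 read -1.28, -1.72, -1.77, -1.83 and -1.35 in the floxed tumours and -2.04, -2.10 and -2.18 in the pools, with every floxed tumour above every pool, and Eno3 ranged from -3.31 to -2.66. Pgam2 was the only member whose groups did not overlap (1 of 30 against 1.01% of all genes higher and 2.17% lower without overlap): it differed by 0.51 (SE 0.17), with an unadjusted limma p of 0.0140, an adjusted p of 0.942 and an exact permutation p of 0.0357. Myoglobin (Mb) was far above the reference on every array and did not mark the same sample: it read 4.63, 3.44, 3.86, 3.86 and 4.20 in the floxed tumours and 3.83, 3.45 and 4.68 in the pools, highest in pool 3 and floxed tumour 1 and lowest in floxed tumour 2. Its group difference was 0.01 (SE 0.33).

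No member passed the test between genotypes. In the limma fit of 21540 genes, 1 gene of 21540 passed a Benjamini-Hochberg adjusted p of 0.05 (0.00464%), and it was no member: Dppa1, lower in floxed tumours. Adjusted p-values of the 30 members were 0.942 to 0.999, and unadjusted p-values under 0.05 were reached by Pgam2 and Actc1, both higher (2 of 30, against 1.61% of all genes higher and 3.36% lower). Differences above 0 were seen for 24 of the 30 members, against 47.4% of all genes, and their median difference was 0.26, against -0.01 over all genes. Without floxed tumour 5 the count above 0 was 17 of 30 (48.2% of all genes) and the median 0.02 (-0.01 over all genes). Without floxed tumours 2 and 5 the count was 10 of 30 (47.3% of all genes) and the median -0.07 (-0.02 over all genes). Without floxed tumour 2 alone the median was 0.32, with 24 of 30 above 0, so the median difference rested mainly on floxed tumour 5. Leaving out both tumours was chosen after the data were seen. Acta1, Actc1, Atp2a1, Mylpf, Myl1, Myh1, Pgam2, Tnni1, Eno3 and Mb stayed above 0 without both. The median SD of a member was 0.60 over the 5 floxed tumours, 0.35 without floxed tumour 5 and 0.17 over the 3 pools, against 0.28, 0.29 and 0.25 over all genes. Slides held samples of both groups. The median difference was 0.50 within the slide of pool 1, which held floxed tumours 4 and 5, 0.13 within that of pool 2 (floxed tumour 1) and 0.08 within that of pool 3 (floxed tumours 2 and 3), with 27, 21 and 18 of the 30 members above 0. Over all genes the medians within these slides were -0.03, 0.06 and -0.08, with 46.2%, 55% and 42.4% of genes above 0. These values within slides have no test, and 16 members had the opposite sign from the whole in at least 1 slide. Nothing in the labels says from which animals the tumours of a pool came, and p-values measure only the spread between these samples.

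**Figure D4:**
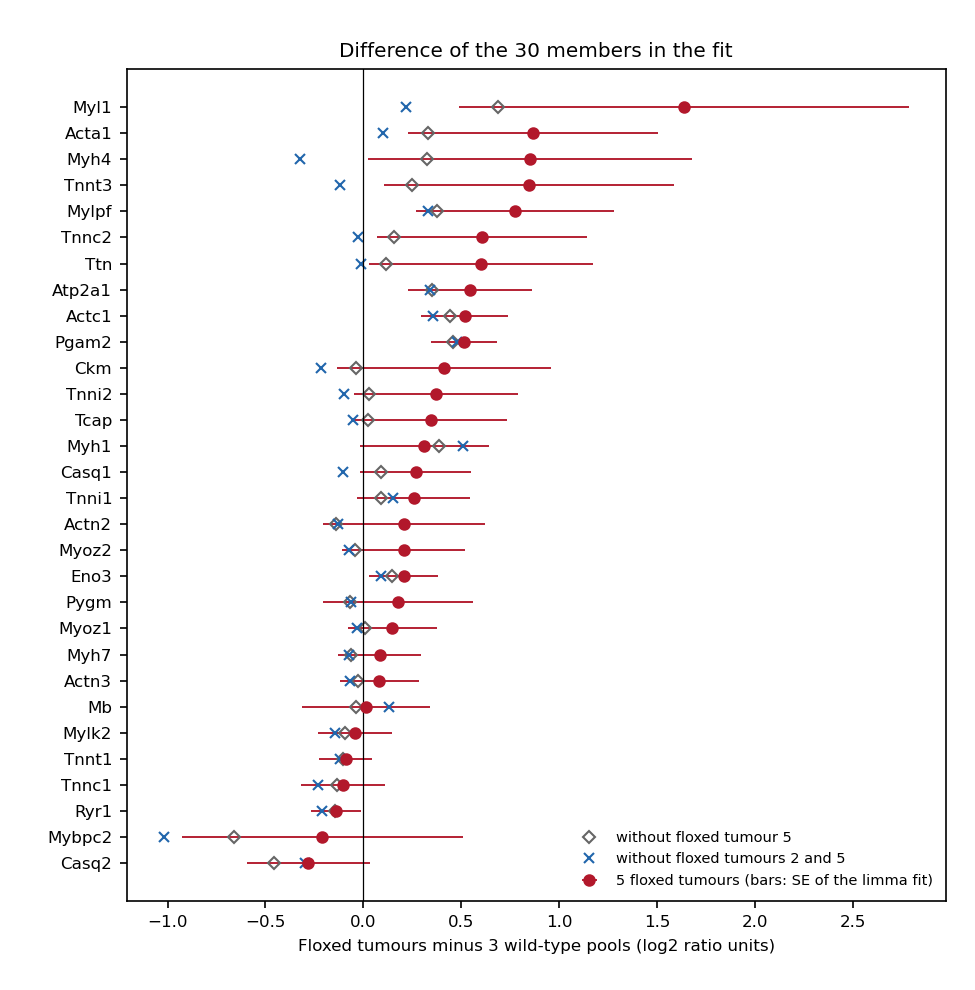
Difference in log2 ratio between floxed tumours and wild-type pools for the 30 members in the fit (circles, bars for the SE of the limma fit), with the same difference without floxed tumour 5 (diamonds) and without floxed tumours 2 and 5 (crosses). Of the 30 circles 24 lie above 0, and of the crosses 10 do.

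Genes of muscle outside the members were followed in a further list of 76, of which 53 were measured. In floxed tumour 5, 27 of the 53 had their highest ratio and 5 lay more than 1 log2 unit above their median, and the list median there was 0.36 against -0.09 to 0.05 on the other arrays. None passed the test in either direction (33 above and 20 below 0); the 3 of smallest p were Cmya5 at -1.10, Tmod4 at -0.45 and Mypn at 0.51. The list of 26 myogenic regulators and developmental muscle genes, 19 of them measured, did not share the pattern as a whole, with a median of 0.02 in floxed tumour 5. Of the 19, 2 lay more than 1 log2 unit above their median there, the heavy chains Myh8 (by 4.36) and Myh3 (by 1.32). In the same list Myod1, Myog and Myf6, transcription factors of muscle formation, read 0.69, -1.11 and -0.29 in floxed tumour 5. On the other arrays they read 0.27 to 0.91, -1.76 to -1.24 and -0.68 to -0.23. The 3 of smallest p were Mef2c, a transcription factor of muscle and vessels (0.57, groups not overlapping, adjusted p = 0.942), the embryonic heavy chain Myh3 (0.48) and Chrnb1 of the acetylcholine receptor (-0.71). Markers of heart muscle were not high in floxed tumour 5: the list median was -0.15 over the 11 measured of 15, and Tnni3, cardiac troponin I, read -0.10 there against -0.79 to 2.64 elsewhere.

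The genes whose ratios over the 8 arrays were most like the median of the members were sought among 8713 other genes with a range of at least 1 log2 unit. They were, in order of Pearson's r, Cav3 (0.985), Smpx (0.983), Myom2 (0.979), Ankrd2 (0.974), Csrp3 (0.970), A730020M07Rik (0.948), Des (0.946), Myh3 (0.944), Myh8 (0.943) and Synpo2 (0.942), with Spearman's rho from 0.52 to 0.88. Without floxed tumours 5 and 4, the 2 arrays farthest from the median, r over the remaining 6 arrays was 0.95 for Des, 0.86 for Smpx, 0.82 for Cav3, 0.76 for Myh8 and 0.31 to 0.49 for the others, so that the likeness of these 6 genes rested on those 2 arrays. Myh8, the perinatal heavy chain of the same gene cluster, read 3.74 in floxed tumour 5 and 1.40 in floxed tumour 2 against -0.999 to -0.45 on the other 6 arrays. Cav3, the caveolin of muscle membranes, read 0.66 in floxed tumour 5 against -0.71 to -0.21 elsewhere, and Csrp3, a muscle LIM protein, 2.04 against -0.39 to 0.07. Desmin (Des), the intermediate filament of muscle cells, read -1.21 in floxed tumour 5 and -2.06 in floxed tumour 2 against -2.64 to -2.32.

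Lists for other cell types gave smaller deviations in floxed tumour 5 than the members did. List medians there were 0.22 for the 21 smooth muscle, pericyte and myoepithelial markers, 0.10 for 17 fibroblast and connective tissue markers, -0.06 for 22 adipocyte markers, 0.17 for 14 endothelial markers, 0.01 for 12 nerve markers, -0.09 for 6 skin markers and -0.13 for 20 epithelial markers. The summed tumour-channel level of the 14 fast-fibre members was 51111 in floxed tumour 5, 15666 in floxed tumour 2, 8736 to 12320 in the other floxed tumours and 9121 to 10438 in the pools. Of the 51111, Acta1 gave 14891. All 30 members in the fit summed to 96132 in floxed tumour 5 and 34545 to 52092 on the other arrays. Slow-fibre and cardiac members summed to 16910 in floxed tumour 5 and 9018 to 15123 elsewhere. The 53 other muscle genes summed to 189574 in floxed tumour 5, below the 207475 of pool 3. In floxed tumour 2 another list was high as well: the fibroblast and connective tissue median was 1.41. Of its 17 genes, 12 were highest on that array, against 3141 of the 21456 genes measured on every array. The summed level of that list was 632964, against 197975 to 348778 in the other floxed tumours and 292414 to 399269 in the pools. The part of that list in the muscle values was not tested. The adipocyte median was highest in floxed tumour 1 (0.80), where the member median was 0.02. None of these lists had a gene past the threshold in either direction. Of each the 3 genes of smallest p were Trp63 (-1.71), Actg2 (0.60) and Tagln (0.54) for smooth muscle and myoepithelium, Lipe (0.51), Pnpla2 (0.47) and Cox8b (-1.72) for fat, Scx (-0.48), Dpt (-0.89) and Comp (-0.84) for connective tissue, and Wap (-2.76), Krt7 (-1.78) and Muc1 (-1.23) for epithelium. For endothelium they were Plvap (0.76), Pecam1 (0.37) and Vwf (-1.02), for nerve Cnp (-0.70), Mbp (-0.37) and Ncmap (-0.81), for skin Sprr1a (-0.45), Krt86 (0.56) and Lor (-0.52), and for heart Tnni3 (-1.19), Nppb (-0.75) and Mybpc3 (-0.17).

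**Figure D5:**
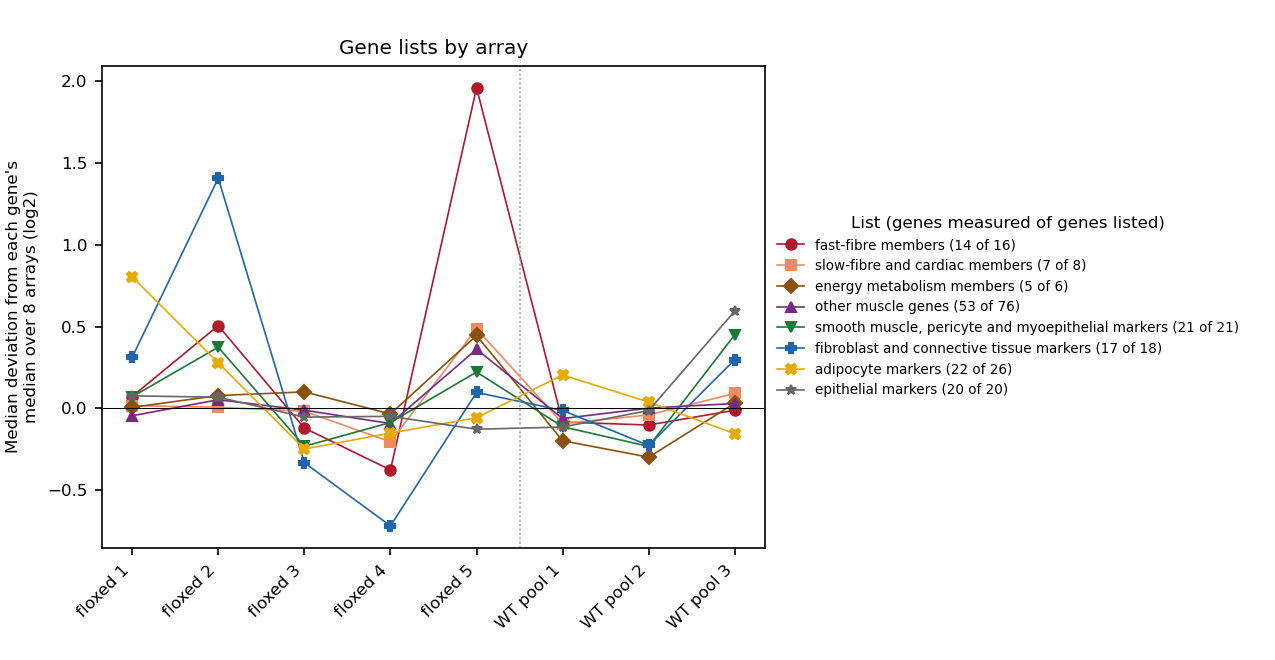
Median deviation of the genes of 8 lists from each gene's own median over the 8 arrays (log2 units), by array, with the number of genes measured of those listed in brackets. The fast-fibre members reach 1.96 in floxed 5 and 0.51 in floxed 2, and the fibroblast list reaches 1.41 in floxed 2 and 0.10 in floxed 5.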

How the data were processed

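The 8 samples were measured on 2-colour Agilent arrays of design 014868. Per the file headers, spots were read with Agilent Feature Extraction 9.5.3.1, and the deposited scanner files hold spot intensity in both channels, with probe positions in build mm7. The authors' deposited series table holds log2 values that correlated at 0.908 to 0.929 with each array's log2 ratio of tumour over reference, with a slope of 0.678 to 0.844 and column medians of 0.00215 to 0.0105; that it runs tumour over reference and is centred near 0 follows from this, with an exact scale not given in the sources used here; the submitters' processing notes name RMA. It served as an alternative.

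In limma 3.58.1 (R 4.3.3), intensities were background-corrected by normexp with an offset of 50, which pulls the ratios of dim probes toward 0, and loess-normalised within arrays with control spots at weight 0. Outlier spots were dropped and spots of a probe averaged. A probe was kept where 3 or more of the 8 arrays had its tumour signal well above background, and the brightest kept probe stood for its gene. Groups were compared with lmFit and eBayes over all genes (Benjamini-Hochberg, threshold 0.05, two-sided), with exact permutation of the 56 splits into 5 and 3 for single genes (smallest p 0.0179). Intensities given per array are Aquantile-normalised tumour-channel values. A fold over the pools is taken against the geometric mean of their intensities, which is the mean on the log2 scale. Where no pool was above background, the fold is a lower bound. Each pool then enters by the higher of the probe's signal and the lowest signal among probes above background. The script was tested on simulated data. There was no dye swap, so a dye effect common to all arrays stays in each ratio and cancels between groups. Precision is limited by the number of arrays.

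The members and the gene lists were chosen with earlier results of these data known. Named were all members, with Myh1, Myh2, Myh4, Acta1, Actc1, Ckm, Atp2a1, Mylpf, Tnnt3, Tnnc1, Tnnc2, Pvalb, Mb and the 3 members of largest and of smallest difference in full, the 3 genes of smallest p of each other list, and the 10 genes most like the members' median; Myod1, Myog, Myf6, Krt8, Krt18 and Dppa1 were chosen after their values were seen. Of the probes, 22951 were named by accession and 6659 by an identical symbol through RefSeq (GRCm38.p6), and 11564 keep the file's own name. Probe sequences are those of the scanner files and start regions those of RefSeq.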

Additional observations from a re-analysis of the deposited data

Results flagged for a closer look

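Among 31 sets of 5 floxed values that were examined (the 30 members in the fit and their median), 3 had a sample far from the other 4 by Dixon's criterion. At about 1 in 20 per set, chance would give 1.55 such sets. The sets share the same 5 tumours, and floxed tumour 5 was already known to be high, so the count is a description and no test. In each of the 3 sets the sample was floxed tumour 5 and was the highest. Tcap read 1.79 there and -0.01 to 0.40 in the other floxed tumours. Actn2 read 1.16 against -0.95 to -0.35. Myoz2 read -0.12 against -1.58 to -1.19. Members with larger deviations in floxed tumour 5, such as Myl1 and Tnnt3, were not among the 3, and in both of these floxed tumour 2 was the second highest of the floxed tumours (-2.37 for Myl1 and -1.47 for Tnnt3). Groups of 3, such as the pools, were not examined in this way.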

How the results depend on the processing

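Under all alternatives tried with a test, no member passed the threshold. Over all genes 1 passed (1070 at an unadjusted p under 0.05), and 0 passed with the processed signals of the scanner software, the tumour channel alone, no filter on dim probes, the filter on all 8 arrays, trended and robust variances, slide as a fixed block, the authors' deposited table, and the 3 alternatives chosen after seeing the data: leaving out floxed tumours 2 and 5, a filter of 1 array, and that filter with the probe of highest signal in floxed tumour 5. In these, 746 to 1446 genes were under an unadjusted p of 0.05. When each sample was left out in turn, 0 to 2 genes passed, 17 to 27 members were above 0, and their median difference was 0.025 to 0.35, lowest without floxed tumour 5. Median centring in place of loess lowered the share of all genes above 0 from 47.4% to 41.2%. Without floxed tumours 2 and 5, 10 members were above 0 and the median was -0.068; the sign changed for Actn2 (-0.13), Actn3 (-0.07), Casq1 (-0.11), Ckm (-0.22), Myh4 (-0.33), Myh7 (-0.074), Myoz1 (-0.034), Myoz2 (-0.075), Pygm (-0.065), Tcap (-0.055), Tnnc2 (-0.026), Tnni2 (-0.10), Tnnt3 (-0.12) and Ttn (-0.013). Of members that changed sign when 1 sample was left out, the lowest and highest differences were -0.14 and 0.39 (Actn2), -0.029 and 0.20 (Actn3), -0.038 and 0.68 (Ckm), -0.26 and 0.36 (Mb), -0.66 and 0.46 (Mybpc2), -0.063 and 0.17 (Myh7), -0.14 and 0.14 (Mylk2), -0.043 and 0.34 (Myoz2), -0.16 and 0.44 (Pygm) and -0.23 and 0.094 (Tnnc1). The sign also changed for Mylk2 with processed signals (0.013) and the deposited table (0.014), Mb with median centring (-0.056), Myh7 in the tumour channel alone (-0.032) and Ryr1 with the mean of its kept probes (0.24). Within single slides, where no test was made, 3 members had the opposite sign in the slide of pool 1 (Casq2 0.43, Mybpc2 0.91, Mylk2 0.081), 9 in that of pool 2 (Actn2 -0.63, Casq1 -0.051, Ckm -0.66, Myh7 -0.23, Mylk2 0.18, Myoz2 -0.36, Pygm -1.04, Tnnc1 0.11, Tnnt1 0.15) and 6 in that of pool 3 (Actn3 -0.052, Mb -1.03, Pygm -0.063, Tcap -0.039, Tnni1 -0.40, Tnni2 -0.15). Beyond what leaving out a sample shows, the cause was not tested. The count of members highest in floxed tumour 5 was 20 to 24 where 30 members were measured, and 17 of 24 with the filter on all 8 arrays. It was 27 of 35 with no filter or a filter of 1 array. With the probe choice that favours that tumour it was 29 of 35. No such count could be made within a single slide or without that tumour. No paired analysis was possible because replicate numbers only name the floxed tumours and pair with no pool; matching by slide was possible and is the block and the within-slide values above. Signal over background kept Myh2, Neb, Pvalb, Trdn and Ckmt2 out of the fit.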
